A study of Mus musculus with 6 samples.

Results

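The NMDA receptor genes Grin1, Grin2a, Grin2b, Grin2c, Grin2d, Grin3a and Grin3b were examined in the hippocampus of p300-ifKO mice and control littermates. They were taken by name, as the complete set of genes for NMDA receptor subunits in the mouse, and each was found by its Ensembl identifier, so that they make up 7 of the 55471 genes counted. The authors sequenced total RNA from the hippocampus of 3 male p300-ifKO and 3 male control mice, with 1 library per mouse. The mice were C57BL/6 animals by their labels (C57BL/6J in the methods of the study) of 3 to 6 months. The methods place the mice of this RNA screen in the younger part of that range. Tamoxifen (20 mg/ml, dissolved in corn oil) was given by the intragastric route 5 times to both groups, every other day. The paper states that RNA was profiled 1 month after gene ablation. An ifKO is an inducible forebrain knockout: p300-ifKO mice carried Ep300_flox, the floxed gene of the acetyltransferase p300, together with Camk2a_creERT2, a Cre recombinase that tamoxifen switches on. Controls are described in the protocol as littermates without creERT2, but Camk2a_creERT2 stands in the description of the control libraries. The paper reports that genes tied to this transgene were higher in p300-ifKO than in control mice. The driver acts in excitatory forebrain neurons, so interneurons, glia and vessels keep Ep300, and in whole hippocampus a loss of cells of one type cannot be told apart from less RNA per cell. Total counts ranged from 23151568 to 28433823 per library.

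NMDA receptors are glutamate-gated, calcium-permeable channels that open only when glutamate and a co-agonist, glycine or D-serine, are bound and the membrane is depolarized, which makes them detectors of coincident activity in hippocampal plasticity. Every receptor contains the obligatory GluN1 subunit, encoded by Grin1, which binds the co-agonist. GluN1 assembles with glutamate-binding GluN2 subunits (Grin2a to Grin2d), which set the kinetics and magnesium block of the channel, or with GluN3 subunits (Grin3a, Grin3b), which bind glycine and lower calcium permeability.

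None of the 7 genes was called different between p300-ifKO and control mice. In the DESeq2 Wald test, 0 of 7 passed an adjusted p of 0.05, where 0.0061% of the 32773 genes tested did, and 0 of 7 had an unadjusted p under 0.05, where 1.32% did. The fitted change was lower in p300-ifKO for 5 genes and higher for 2, and the median log2 fold change of the 7 was -0.09, beside -0.05 over all genes tested. Counts were normalized by the size factors of DESeq2 and are given for replicates 1, 2 and 3 in that order, and fold changes are p300-ifKO over control.

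Some facts of the libraries bear on these values. Ep300 had 1545, 1474 and 2334 normalized counts in controls and 478, 1350 and 912 in p300-ifKO mice, so replicate 2 of p300-ifKO was closest to control. Its log2 fold change was -0.97 (SE 0.33, unadjusted p = 0.0037, adjusted p = 0.991, DESeq2). The targeted gene itself was therefore not called, and a gene not called here is not shown to be unchanged. The Ep300 count covers the whole gene, not the recombined exon. In each library, genes deviated from their mean over the 6 libraries in a way that followed exonic length: over 17071 genes, Spearman's rho with length was 0.18, 0.16 and 0.41 in controls and -0.50, 0.41 and -0.28 in p300-ifKO. Genes of at least 10 kb (1491) deviated by a median of -0.38 on the log2 scale in p300-ifKO replicate 1 and of 0.24 in control replicate 3. Of 8 lists of cell type markers, none had a called gene with all 6 libraries. Without p300-ifKO replicate 2, where DESeq2 called 7.9% of the 11726 genes with an adjusted p, 6 markers were called. All were higher and are named here after their values were seen. They were Neurod2 (log2 fold change 0.42, excitatory neurons), Npy (0.56, interneurons), Agt (0.59, astrocytes), C1qa (0.70) and C1qb (0.67, microglia) and Cldn5 (0.51, endothelium). Their exonic lengths ran from 566 bases (Npy) to 3142 bases (Neurod2). With all 6 libraries, the fitted change was lower for 7 of 10 interneuron, 6 of 10 astrocyte and 6 of 8 endothelium markers. In the same fit 4 of 10 excitatory neuron and 2 of 9 microglia markers were lower. The summed normalized counts of the 10 excitatory neuron markers were 73812 to 86339 in controls and 80134 to 96901 in p300-ifKO, and the corresponding ranges were 25204 to 28510 and 23963 to 26905 for the 10 interneuron markers, and 65738 to 70813 and 63491 to 71006 for the 10 astrocyte markers. The summed counts of the 9 microglia markers were higher in every p300-ifKO library, at 9317 to 10261 in controls and 10282 to 12717 in p300-ifKO, with 3 of the 9 at an unadjusted DESeq2 p under 0.05, where 1.32% of all genes were. An unadjusted DESeq2 p under 0.05 was also found for 2 of 10 astrocyte markers, in opposite directions: Agt (log2 fold change 0.46) and Slc1a3 (-0.25). Among the 10 excitatory neuron markers it was found for 1, Neurod2 (0.33). Choroid plexus markers (7) ranged from 740 to 3689 in controls and from 1370 to 5356 in p300-ifKO. The part of these in the results below was not tested.

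**Figure D1:**
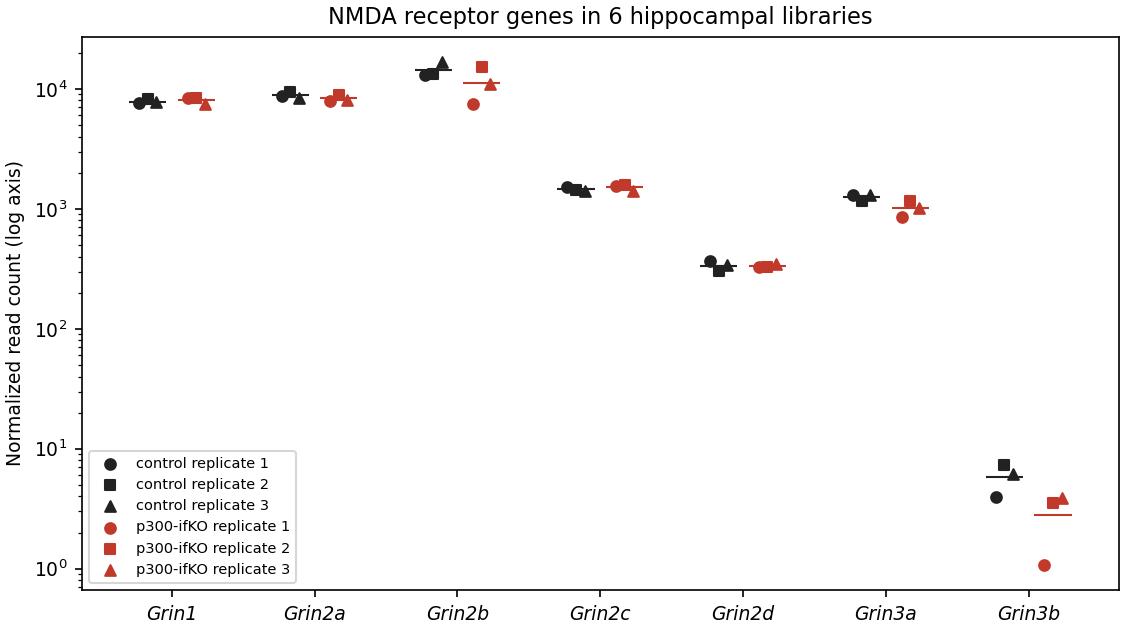
Normalized read counts (log axis) of the 7 NMDA receptor genes in each library, control in black and p300-ifKO in red, with the symbol giving the replicate and the line the group mean. Grin2b has the widest spread among the 6 genes with more than 100 counts, from 7411 in p300-ifKO replicate 1 to 16756 in control replicate 3, and Grin3b lies far below the others.

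Grin1, on chromosome 2 (25291181 to 25319187, minus strand, GRCm38), encodes the subunit on which all NMDA receptors depend. Its normalized counts were 7598, 8166 and 7691 in controls and 8419, 8373 and 7539 in p300-ifKO mice. The highest and the lowest library both belonged to the p300-ifKO group, and the groups overlapped. Group means were 7819 ± 305 (SD, n = 3) and 8110 ± 496, a 1.04-fold difference with a 95% interval of 0.895 to 1.20 (adjusted p = 0.991, DESeq2). The coefficient of variation over the 6 libraries was 5.04%, against 1.12% from counting error alone. An antisense gene, Grin1os, overlaps 1307 exonic bases of Grin1 and collected 1930 reads over all libraries, and without strand information reads of the pair cannot be told apart.

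Grin2a and Grin2b encode the principal GluN2 subunits of the adult forebrain, GluN2A of fast-decaying and GluN2B of slowly decaying synaptic currents. Grin2a (chromosome 16, 9567898 to 9995560, minus strand) had 8729, 9385 and 8458 normalized counts in controls and 7864, 8938 and 8106 in p300-ifKO. The groups overlapped through p300-ifKO replicate 2. Means were 8857 ± 477 and 8303 ± 564, and the fold difference was 0.937 (95% interval 0.803 to 1.09, adjusted p = 0.991, DESeq2). With smooth offsets for length and GC content in each library the log2 fold change went from -0.09 to 0.16, so its direction is not settled by these libraries.

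Grin2b (chromosome 6, 135713233 to 136173511, minus strand) varied most among the 6 well-counted genes. It had 13067, 13285 and 16756 normalized counts in controls and 7411, 15149 and 11045 in p300-ifKO. Replicates 1 and 3 of p300-ifKO lay below every control, whereas replicate 2 lay above controls 1 and 2. The means, 14369 ± 2070 and 11202 ± 3871, differed 0.780-fold with a 95% interval of 0.557 to 1.09 (adjusted p = 0.991, DESeq2). The ratio of the highest to the lowest library was 2.26, and the coefficient of variation was 25.6%, far above the 0.879% of counting error.

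The result for Grin2b depended on a single library. Without p300-ifKO replicate 2, its log2 fold change was -0.64 (SE 0.18) and passed the test (adjusted p = 0.0254, DESeq2), in a fit where 7.9% of 11726 genes were called. Without p300-ifKO replicate 1 the value was -0.14. Both fits left 2 p300-ifKO mice. Grin2b also has the longest exonic sequence of the 7 genes, 24842 bases, and its log2 deviation from the mean of the 6 libraries was 0.08, 0.10 and 0.44 in controls and -0.74, 0.29 and -0.17 in p300-ifKO. These values had the sign of the median deviation of genes of at least 10 kb in each library and were larger in size. Those medians were 0.03, 0.03 and 0.24 in controls and -0.38, 0.16 and -0.07 in p300-ifKO. After the length and GC offsets Grin2b had 12846, 13132 and 13003 counts in controls and 10182, 13458 and 11999 in p300-ifKO. The spread from lowest to highest narrowed from 2.26-fold to 1.32-fold, and the log2 fold change to -0.13 (SE 0.12). With 1 surrogate variable it was -0.03 (SE 0.06). Whether the length trend produced the difference was not tested.

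**Figure D2:**
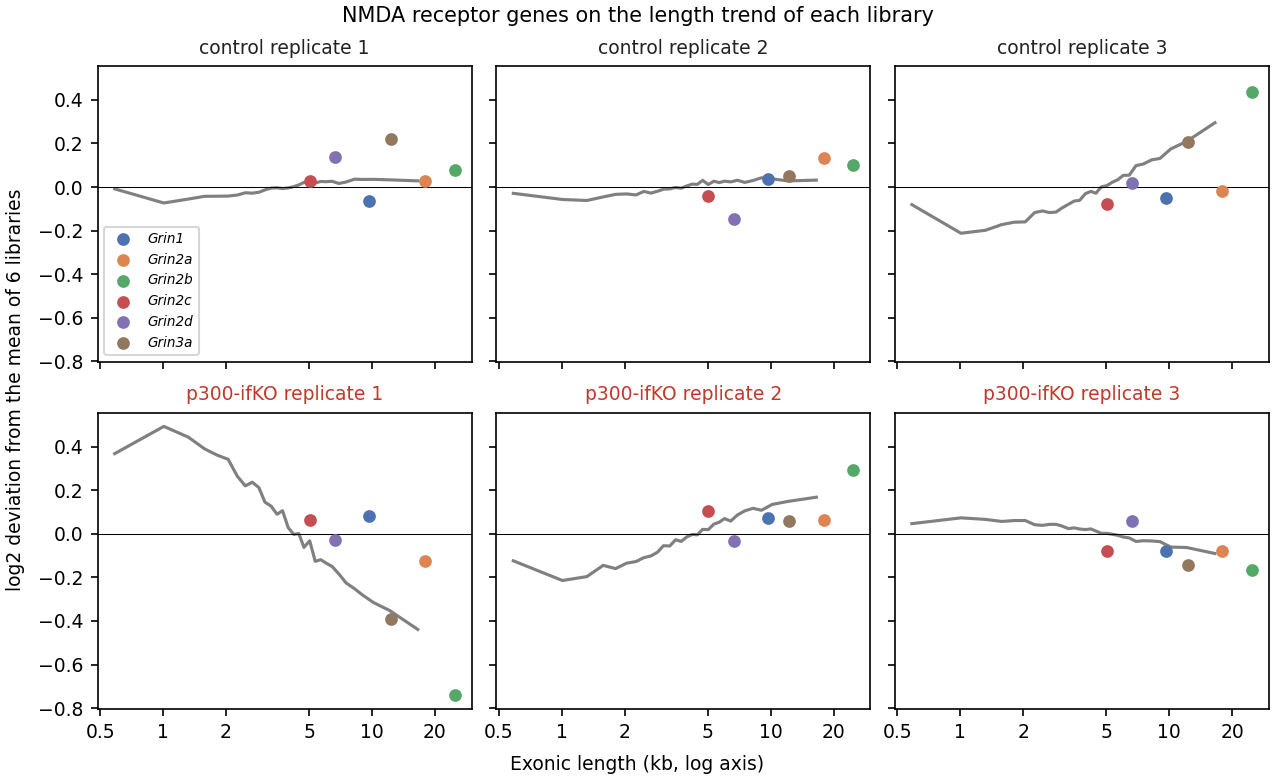
Log2 deviation of each gene from its mean over the 6 libraries against exonic length (kb, log axis), with the grey line giving the median of all genes in length bins and the dots 6 NMDA receptor genes (Grin3b, with fewer than 10 counts, is left out). Grin2b, the rightmost dot, lies on the side of 0 toward which the line bends in each library, most in p300-ifKO replicate 1 at -0.74, whereas Grin2a deviates by 0.13 or less and Grin1 by 0.08 or less.

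Grin2a, the next longest member with 17933 exonic bases, did not vary in this way. Its deviations were 0.03, 0.13 and -0.02 in controls and -0.12, 0.06 and -0.08 in p300-ifKO. The same offsets raised its coefficient of variation from 6.49% to 15.6%, with corrected counts of 8528, 9236 and 6758 in controls and 10806, 7925 and 8660 in p300-ifKO. The offsets therefore narrowed the spread of Grin2b and widened that of Grin2a.

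Grin2c and Grin2d encode subunits of low magnesium sensitivity that are less abundant in principal neurons of the hippocampus. Grin2c (chromosome 11, 115249169 to 115267243, minus strand) had 1507, 1436 and 1401 normalized counts in controls and 1546, 1590 and 1399 in p300-ifKO. The groups overlapped, and the fold difference was 1.04 (95% interval 0.890 to 1.22, adjusted p = 0.991, DESeq2). Grin2d (chromosome 7, 45831883 to 45878378, minus strand), which is expressed mainly by interneurons in the adult hippocampus, had 367, 302 and 338 normalized counts in controls and 328, 326 and 347 in p300-ifKO. All p300-ifKO libraries fell inside the range of the controls. Means were 335 ± 32.8 and 334 ± 11.8, and the fold difference was 0.994 (95% interval 0.807 to 1.23, adjusted p = 0.997, DESeq2). Its coefficient of variation, 6.59%, was close to the 5.45% of counting error. The antisense gene Gm45441 shares 643 exonic bases with Grin2d and collected 602 reads in all.

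Grin3a (chromosome 4, 49661611 to 49845744, minus strand) encodes GluN3A, a subunit associated with juvenile synapses. It had 1311, 1164 and 1299 normalized counts in controls and 857, 1170 and 1017 in p300-ifKO. The groups overlapped only because p300-ifKO replicate 2 was slightly above control replicate 2. Means were 1258 ± 81.4 and 1015 ± 156, and the fold difference was 0.807, a log2 fold change of -0.31 with a 95% interval of -0.62 to 0.00066. Its unadjusted p, 0.0505, was the smallest of the 7 genes in DESeq2, and the adjusted p was 0.991. Without p300-ifKO replicate 2 the log2 fold change was -0.42 (adjusted p = 0.0547, DESeq2).

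The direction for Grin3a was lower in p300-ifKO in every one of 17 alternative fits, with log2 fold changes from -0.42 to -0.15, none of which was called. These fits reuse the same 6 libraries and are not independent of each other. Grin1, Grin2b and Grin2c also kept their direction in all 17, and Grin3b in all 12 fits that held it. Grin3a has 12275 exonic bases. Its log2 deviations were 0.22, 0.05 and 0.21 in controls and -0.39, 0.06 and -0.14 in p300-ifKO. The median deviations of genes of at least 10 kb were 0.03, 0.03 and 0.24 in controls and -0.38, 0.16 and -0.07 in p300-ifKO. The part of the length trend in the Grin3a values was not tested. After the length and GC offsets Grin3a had 1287, 1158 and 1107 counts in controls and 1075, 1063 and 1074 in p300-ifKO. These corrected values did not overlap between groups, but in DESeq2 the change was -0.15 on the log2 scale (SE 0.11), at an unadjusted p of 0.17.

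Grin3b (chromosome 10, 79970715 to 79977190, plus strand), the gene of GluN3B, a subunit known mainly from motor neurons, was barely counted. Raw counts were 4, 7 and 6 in controls and 1, 4 and 4 in p300-ifKO, or 3.98, 7.35 and 6.12 and 1.07, 3.53 and 3.86 normalized counts. After normalization every p300-ifKO library lay below every control, but control replicate 1 and p300-ifKO replicates 2 and 3 had 4 raw counts each. That separation rests on the size factors. The share of Grin3b among the 7 genes overlapped, at 0.053% in control replicate 1 and 0.056% in p300-ifKO replicate 3. Among the 7 genes, only Grin3b had normalized counts without overlap. Of all genes tested, 3.42% were lower without overlap, and 3.21% were higher without overlap, which no member was. The fold difference of 0.492 had a 95% interval of 0.134 to 1.81 (adjusted p = 0.991, DESeq2), so that a difference was not detectable at this depth. The spread of 50.7% was close to the 48.0% of counting error. Grin3b shares 1059 exonic bases with Tmem259 on the other strand, which collected 15789 reads, and 23.6% of its 50-base stretches occur in that gene, so even these few reads are of uncertain origin.

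**Figure D3:**
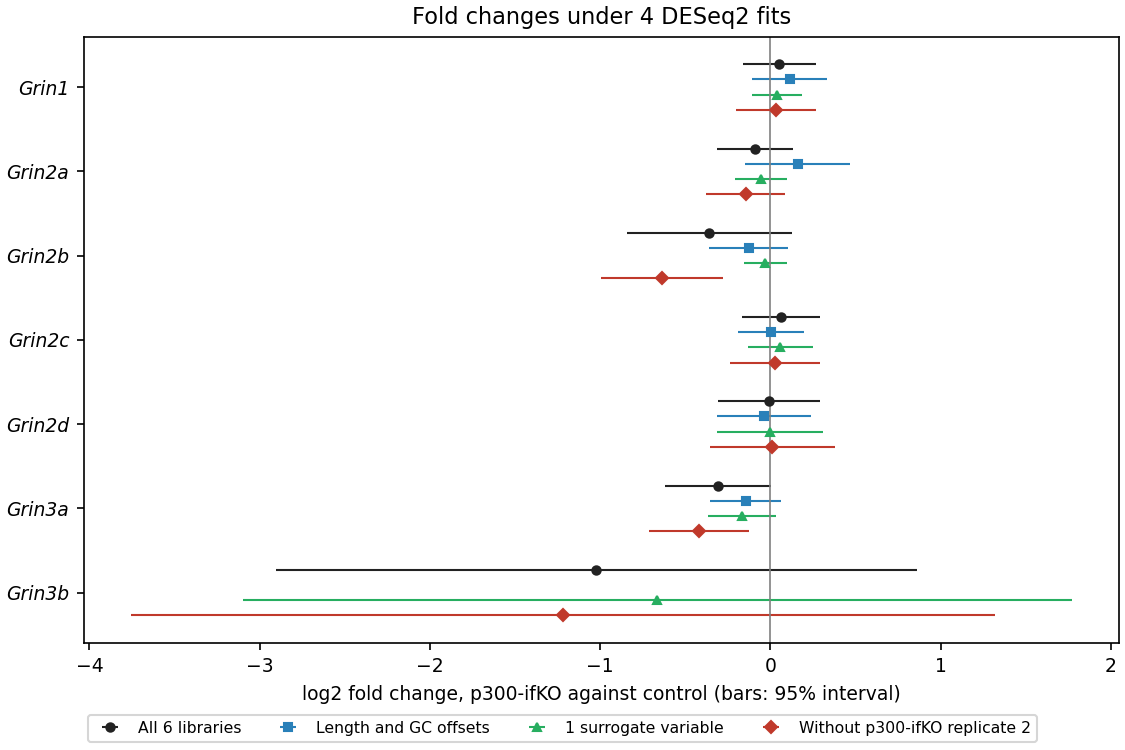
Log2 fold change (p300-ifKO against control) of each NMDA receptor gene with its 95% interval under 4 DESeq2 fits; Grin3b has too few counts for the offset fit. Grin2b moves from -0.64 without p300-ifKO replicate 2 to -0.03 with 1 surrogate variable, whereas Grin1, Grin2c and Grin2d stay near 0.

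The genes were compared with each other per length, as normalized counts per kb of exonic sequence averaged over all 6 libraries. Grin1 was highest, at 821 ± 41.3 (SD, n = 6), or 123 TPM (a length-scaled share of all counts). Grin2b followed at 515 ± 132 and Grin2a at 478 ± 31.1. Grin2c had 294 ± 15.8, Grin3a 92.6 ± 14.2, Grin2d 50.2 ± 3.31 and Grin3b 1.31 ± 0.664 counts per kb. Neighbours in this order were compared within libraries by an exact two-sided sign-flip permutation test, adjusted over 6 pairs.

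Per kb, Grin2b and Grin2a did not differ beyond their spread: Grin2b was 1.04-fold above Grin2a on average and higher in 4 of 6 libraries (adjusted exact permutation p = 0.688). Of the 50-base stretches of Grin2a, 11.6% also occur in other genes, against 0.543% for Grin2b. The part of this in their ratio was not tested. The other 5 steps had the same sign in 6 of 6 libraries (adjusted exact permutation p = 0.0375 for each, from the smallest p that 6 libraries allow). Grin1 was 1.65-fold above Grin2b, Grin2a 1.63-fold above Grin2c, Grin2c 3.20-fold above Grin3a, Grin3a 1.83-fold above Grin2d, and Grin2d 44.5-fold above Grin3b, the last on counts of 1 to 7 reads.

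The order depended on the length used. For Grin1, 14 annotated transcripts together cover 9700 exonic bases while the longest has 4276. With exonic length Grin1 made up 36.6% of the 7 genes, with the longest transcript 53.4%, and with coding length 32.7%, which is below the 34.0% of Grin2b. Summed GluN2 and GluN3 transcripts exceeded Grin1 by 0.79 on the log2 scale with exonic length but were below it, at -0.19, with the longest transcript. With coding length, Grin2c over Grin3a went from 1.68 to 0.27 on the log2 scale, Grin2a over Grin2c from 0.70 to 2.29 and Grin3a over Grin2d from 0.87 to 1.97, and none of the 6 steps had an adjusted exact permutation p under 0.05. With the longest transcript Grin2b over Grin2a was -0.19. A gene count does not show which transcript the reads came from.

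The sequences upstream of the highest and the lowest gene are shown because these 2 genes mark the ends of the order, Grin1 ranking 1354 and Grin3b 22995 by TPM among all genes counted. RefSeq promoters on GRCm38.p6 were matched for 4 of the 7 genes (Grin1, Grin2c, Grin2d and Grin3b), and the 250 bases before the start that RefSeq gives are shown 5′ to 3′ on its own strand, with CG dinucleotides in capitals. RefSeq and GENCODE differ in these starts: the Grin2d window lies inside the longer gene span given above, and the end of the Grin3b window reaches a few bases into that of Grin3b. The first sequence lies at chr2:25319188-25319437 (minus strand) and the second at chr10:79970474-79970723 (plus strand).
Grin1: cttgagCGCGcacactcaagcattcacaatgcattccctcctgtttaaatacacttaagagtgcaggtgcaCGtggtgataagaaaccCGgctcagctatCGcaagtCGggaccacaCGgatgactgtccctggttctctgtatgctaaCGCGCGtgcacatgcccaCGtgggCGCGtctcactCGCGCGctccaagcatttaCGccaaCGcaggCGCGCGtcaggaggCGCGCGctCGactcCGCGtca
Grin3b: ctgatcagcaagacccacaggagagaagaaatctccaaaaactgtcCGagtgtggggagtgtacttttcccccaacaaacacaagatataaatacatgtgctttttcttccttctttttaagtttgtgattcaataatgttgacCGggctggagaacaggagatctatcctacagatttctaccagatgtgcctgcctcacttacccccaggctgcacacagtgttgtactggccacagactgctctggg
Grin1 had 27 CG dinucleotides in this window and Grin3b 2, with Grin2c at 15 and Grin2d at 9, and the median over 32851 promoters of the same length was 6. The share of promoters with fewer CG dinucleotides was 91.4% for Grin1 and 18.8% for Grin3b. Of 3 short motifs searched on both strands, the Grin1 window held the CREB half-site TGACG, present in 17.8% of all promoters, and the E-box CACGTG, present in 6.02%. The GC box GGGCGG, present in 32.7%, was found for Grin2c alone, and none of the 3 was found for Grin2d or Grin3b. RNA counts do not measure these sequences, and a match is a description of letters.

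The composition of the 7 genes was then compared between groups, as each gene's percent of their summed counts per exonic length. Grin2b made up 23.3%, 23.0% and 28.4% in controls and 14.7%, 25.1% and 21.3% in p300-ifKO. Replicates 1 and 3 of p300-ifKO were again below the controls and replicate 2 was not. Grin1 made up 34.7%, 36.2% and 33.4% in controls and 42.7%, 35.5% and 37.2% in p300-ifKO. The high value in p300-ifKO replicate 1 went with the low Grin2b of that library. The ratio of Grin2a to Grin2b, which rises as hippocampal synapses mature, was 0.925, 0.979 and 0.699 in controls and 1.47, 0.817 and 1.02 in p300-ifKO, so the groups overlapped.

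Grin3a made up 4.73%, 4.07% and 4.45% in controls and 3.44%, 3.92% and 3.97% in p300-ifKO. Here the groups did not overlap: the mean share was 4.42% ± 0.328 in controls and 3.78% ± 0.294 in p300-ifKO (exact two-sided permutation p = 0.1, the smallest that 3 against 3 allows). Over the 13 shares and ratios compared the adjusted exact permutation p was 0.433, so this design could not have called any of them. The ratio of summed GluN2 and GluN3 transcripts to Grin1 was 1.88, 1.76 and 2.0 in controls and 1.34, 1.82 and 1.69 in p300-ifKO, again with overlap.

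**Figure D4:**
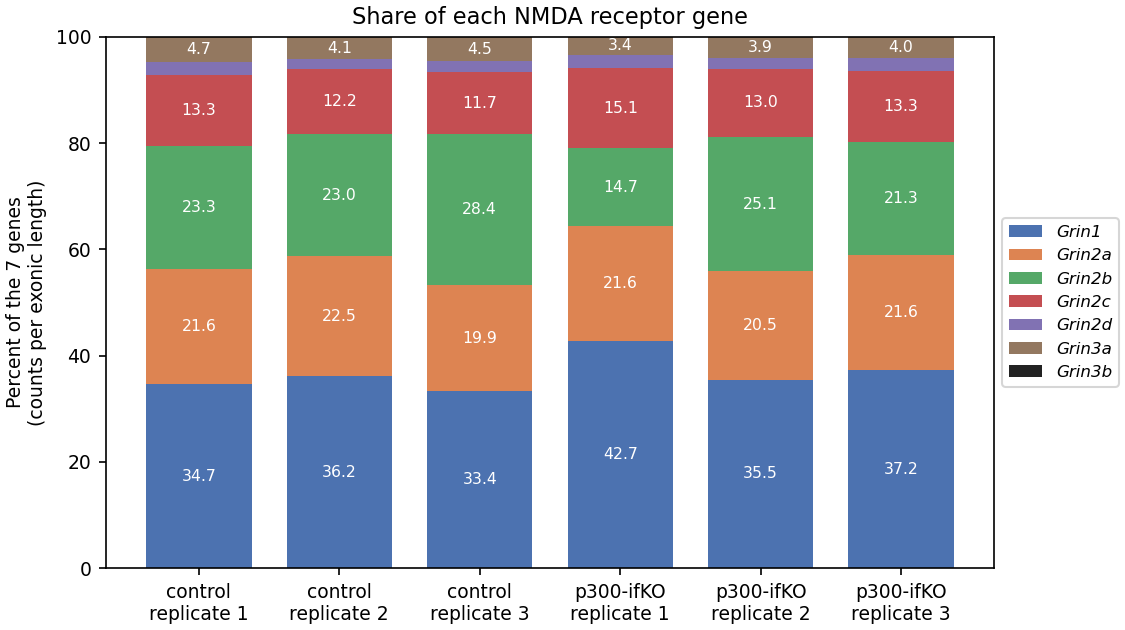
Percent of each gene among the 7 NMDA receptor genes in each library, from counts divided by exonic length. Grin2b falls to 14.7% and Grin1 reaches 42.7% in p300-ifKO replicate 1, and the share of Grin3a is 4.07% or more in each control and 3.97% or less in each p300-ifKO library.

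Genes whose pattern over the 6 libraries was most like each member were listed among 12252 genes with a mean of at least 100 normalized counts, by the root mean square difference of centred log2 counts. These are descriptions over 6 libraries that share the length trend. The nearest to Grin1 were Zswim4 (0.016), Ap5z1 (0.023) and Mtrex (0.028), and to Grin2a Mapk10 (0.018), Mfn2 (0.019) and Arf3 (0.020). Grin2b was nearest to Otud4 (0.020), Inhba (0.022) and Runx1t1 (0.023), of 8096, 6390 and 7959 exonic bases. Grin2c was nearest to Rasgrf1 (0.017), Atg13 (0.030) and Wdr59 (0.031), and Grin2d to Lrrc55 (0.032), Lgals8 (0.036) and Olfm4 (0.038). Grin3a was nearest to Dpysl3 (0.011), Elfn1 (0.022) and Parm1 (0.024). Among the members, Grin1 and Grin2c were closest (0.054) and Grin1 and Grin2b farthest apart (0.41). No member was among the 3 nearest genes of another.

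The genes around the receptor were read from 3 lists. Of 15 genes for the supply of the co-agonists D-serine and glycine, 0 were called, 7 were higher and 8 lower, and the median log2 fold change was -0.05, beside -0.05 over all genes and -0.09 over the 7 receptor genes. Gldc, which encodes the glycine-cleaving decarboxylase, was the lowest with at least 100 counts. It had 1313, 1612 and 1426 normalized counts in controls and 1048, 1231 and 1145 in p300-ifKO, without overlap, and changed by -0.34 on the log2 scale (SE 0.14; DESeq2 unadjusted p = 0.0145, adjusted p = 0.991). Slc1a5, a neutral amino acid transporter named after its values were seen, was the other gene of this list with an unadjusted p under 0.05 (log2 fold change -0.53, DESeq2). It was also lower without overlap. This made 2 of 15 genes with such a p, where 1.32% of all genes tested had one. Of all genes tested, 3.42% were lower without overlap. The highest was Psph, the last enzyme of serine synthesis, at 0.23 (SE 0.19). Srr, the serine racemase that makes D-serine, was at -0.10 (SE 0.14), also named after its values were seen.

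Of 34 receptor partners and regulators, such as scaffolds, kinases and trafficking proteins, 0 were called and 0 had an unadjusted p under 0.05, with 13 higher and 21 lower and a median of -0.06. The lowest was Lin7a, of the complex that carries GluN2B-containing vesicles, at -0.70 (SE 0.39). Its normalized counts were 220, 201 and 326 in controls and 75.2, 254 and 128 in p300-ifKO. Like Grin2b, it was low in p300-ifKO replicates 1 and 3 and not in replicate 2. Other listed genes of that complex, named after their values were seen, went both ways. Cask (-0.17), Apba1 (-0.23) and Lin7c (-0.23) were lower, and Lin7b (0.28) and Kif17 (0.18) were higher. The highest was Csnk2b, the regulatory subunit of casein kinase 2, at 0.34 (SE 0.21). Without p300-ifKO replicate 2, 7 of the 34 were called by DESeq2, where 7.9% of the 11726 genes with an adjusted p were. Among the 7 were Lin7a as lower and Csnk2b as higher.

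Of 9 genes for glutamate release and uptake, 0 were called, with 4 higher and 5 lower and a median of -0.07. The lowest was Slc1a3, the astrocytic glutamate transporter GLAST, with 19091, 21391 and 20593 normalized counts in controls and 16005, 18413 and 17019 in p300-ifKO. These did not overlap (log2 fold change -0.25, SE 0.12, unadjusted p = 0.0316, adjusted p = 0.991, DESeq2). The highest was Gls2, a glutaminase, with 499, 441 and 482 normalized counts in controls and 759, 505 and 575 in p300-ifKO. These did not overlap either (log2 fold change 0.37, SE 0.19, unadjusted p = 0.0504, DESeq2). Of all genes tested, 3.42% were lower and 3.21% higher without overlap. Of the 9 genes, 1 (Slc1a3) had an unadjusted DESeq2 p under 0.05, where 1.32% of all genes tested did.

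**Figure D5:**
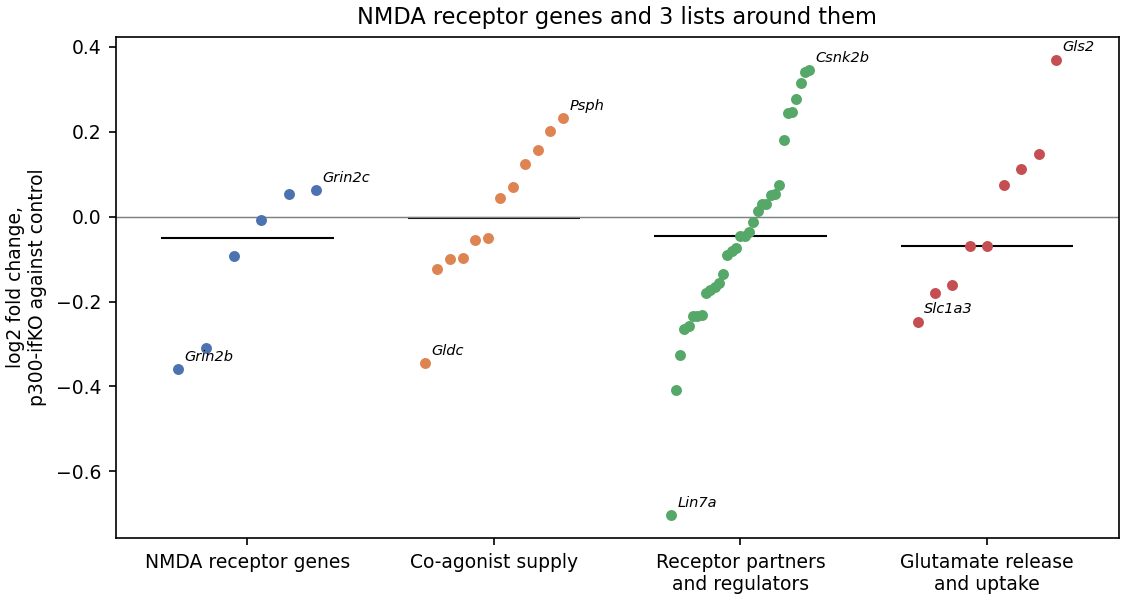
Log2 fold change (p300-ifKO against control) of the NMDA receptor genes and of 3 lists of related genes, for genes with a mean of at least 100 normalized counts (6, 12, 33 and 9 genes), with the black line giving the median of the genes drawn. No gene shown was called, and the medians lie between -0.07 and 0.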

How the data were processed

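The authors sequenced single-end 50 bp libraries of total hippocampal RNA, aligned reads with STAR (2.6.1) to mm10 (GRCm38), kept those above a mapping quality limit and used Rsubread for counting on Ensembl exons. Whether strand was used is not given in the sources used here. The deposited table holds these raw counts per gene with an exonic length, and 0 columns of samples were left unused. The quality limit lowers counts of genes with near-identical copies.

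Symbols, coordinates and exons came from GENCODE M21 (99.4% of 55471 genes matched). Counts were fitted with DESeq2 (1.42.0, R 4.3.3), the tool of the study, by a two-sided Wald test on 32773 genes with Benjamini-Hochberg adjustment and a threshold of 0.05. Alternatives were edgeR (4.0.16), limma-voom (3.58.1), TMM factors, filters on low counts (at least 10 counts in at least 3 libraries) or none, no Cook or no independent filtering, an adjusted p of 0.1, a replicate block, omission of each library, length and GC offsets from mgcv (1.9.3, genes with a mean above 10) and 1 surrogate variable from sva (3.50.0). An edgeR fit with 1 surrogate variable was chosen after seeing the data. Fits were tested on simulated data. Groups and replicate numbers came from sample titles. The 7 members, the lists and the rules were chosen with earlier results of these data known. Named were the members, the 3 genes nearest each in pattern, the lowest and highest gene of each list with a mean of at least 100 normalized counts, Ep300 and genes overlapping a member. Promoters came from RefSeq.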

Additional observations from a re-analysis of the deposited data

How the results depend on the processing

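The number of NMDA receptor genes called was 0 in DESeq2, edgeR and limma-voom and under every other setting run except without p300-ifKO replicate 2, where it was 1 (Grin2b) and where 7 receptor partners were called. At an unadjusted p under 0.05, the 3 tools had 432, 394 and 369 genes of all tested, with no member in DESeq2 and Grin3a in limma-voom (0.0490). Grin3a was also under it with the low-count filter in DESeq2 (0.0457), in edgeR with 1 surrogate variable (0.0490) and without p300-ifKO replicate 2 (0.00485), and Grin2b with the replicate block (0.0354) and without p300-ifKO replicate 2 (0.000487). Without each replicate in turn, the log2 fold change ranged from -0.64 to -0.14 for Grin2b, from -0.42 to -0.20 for Grin3a and from -0.077 to 0.063 for Grin2d. The near-zero value of Grin2d turned positive with limma-voom (0.00068), TMM factors (0.0031) and no filter in edgeR (0.0033). Length and GC offsets turned Grin2a to 0.16 on the log2 scale, and the differences in share (percentage points) to 1.79 for Grin2a, -0.36 for Grin2c and -0.13 for Grin2d of the 7 genes and to -0.13 for both Grin2c and Grin2d of the GluN2 genes. The share difference of Grin2a, -0.05, was 0.81 with coding length, 1.43 without length, and from -0.77 to 0.54 without each replicate; the cause was not tested. Coding length also changed log2 ratios of neighbouring levels, to -0.043 for Grin1 to Grin2b (-0.64 with raw counts), 2.29 for Grin2a to Grin2c, 0.27 for Grin2c to Grin3a, 1.97 for Grin3a to Grin2d and 6.10 for Grin2d to Grin3b, and the longest transcript gave -0.19 for Grin2b to Grin2a. With coding length the adjusted exact permutation p was 0.075 for Grin2c to Grin3a and 0.062 for Grin2a to Grin2c, Grin3a to Grin2d and Grin2d to Grin3b. The last 3 ratios grew, and only the adjustment over pairs took them past the threshold. With exonic length and without each replicate, Grin1 to Grin2b ranged from 0.55 to 0.82 and Grin2a to Grin2c from 0.67 to 0.74. Grin2c to Grin3a ranged from 1.59 to 1.74 and Grin3a to Grin2d from 0.83 to 0.94. Grin2d to Grin3b ranged from 5.12 to 5.70 and Grin2b to Grin2a from -0.029 to 0.19. None of these passed the threshold, since 5 libraries are too few for the exact sign-flip test to pass. Deviations of same-numbered libraries correlated at 0.27, -0.28 and 0.13. With 3 mice per group these values cannot decide whether same-numbered mice were paired, and the sample titles do not say. With a replicate block DESeq2 called 4 genes, where 2 were called without it, and no member or list gene (Grin2b -0.41, Grin3a -0.32), and changed no other call given here. Grin3b had too few counts for fits with filters or offsets. The 3 mice per group limit all of these values.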
